A study of Mus musculus with 4 samples.

Results

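The collagen genes of the mouse were followed in macrophages driven to the M1 or the M2 state. Members were the rows whose Ensembl ID maps to a protein-coding symbol made of Col, a number, the letter a and a number. Of 49315 genes in the count table, 45 matched. The genes were chosen by symbol with no value used, but the family itself was selected on its M2 against M1 differences in an earlier analysis of these counts, so the numbers below describe it and are no test of it. One of the 45, Col4a3bp, is no collagen: it encodes a ceramide transfer protein that was named for binding to a collagen chain. It is kept apart, which leaves 44 collagen chains of 27 collagen types.

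All 4 libraries come from bone marrow-derived macrophages of Lyz2Cre+ mice, in which Cre recombinase is made from the myeloid gene Lyz2; the labels name no floxed allele. Marrow cells were grown in medium with 10% serum and 30% L-cell supernatant, which supplies macrophage growth factor, and used at day 7. The M1 group (n = 2) received lipopolysaccharide at 100 ng/ml with interferon gamma at 50 ng/ml, and the M2 group (n = 2) interleukin 4 and interleukin 13 at 10 ng/ml each, in serum-free medium for 24 hours. Some cultures of the study also received the EGF receptor inhibitor erlotinib, and for these libraries its use is not stated. Cells without polarizing agents were not analysed here: a rise in M2 and a fall in M1 look alike. Nothing in the labels says that the 2 libraries of a group came from separate mice or cultures, so p-values measure the spread between these libraries only.

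Collagens are the main fibrous proteins outside cells. Chains of one or several genes wind around one another into a helix, which needs hydroxylated prolines and a dedicated chaperone, and most are secreted, trimmed and cross-linked into fibrils, networks or filaments. Fibroblasts and related stromal cells are the usual source. Macrophages are better known for taking collagen up and breaking it down, although collagen transcripts, type VI among them, have been described in them too.

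Library totals ran from 26806370 to 39506242 counts. Collagen chains held 5197 and 4417 counts in the M1 libraries and 62169 and 92081 in the M2 libraries. As a share of all counts this was 0.0151% (Wilson 95% interval 0.0147% to 0.0155%) and 0.0155% (0.0151% to 0.0160%) in M1, and 0.232% (0.230% to 0.234%) and 0.233% (0.232% to 0.235%) in M2, a ratio of 15.2 between group means. Below, levels are in CPM, read counts scaled to library size with TMM normalization, which gives the M1 libraries factors of 0.846 and 0.866 and both M2 libraries a factor of 1.17. On that scale the chains summed to 178 and 179.7 CPM in M1 and 1985 and 1999 CPM in M2, a ratio of 11.1. All intervals cover counting error only.

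Of the 44 chains, 28 had enough counts to be tested. In M2, 22 were higher, 2 were lower and 4 were not called by edgeR's quasi-likelihood test at a Benjamini-Hochberg adjusted p under 0.05. Among all 14656 tested genes 77.2% were called, 39.7% higher in M2 and 37.5% lower. A call alone is therefore common in this contrast. By size, 17 chains were higher by at least 3 log2 units, which 7.10% of all tested genes were. The median log2 fold change (M2 minus M1, as throughout) was 3.36 over the tested chains and 0.04 over all tested genes. Both M2 libraries lay above both M1 libraries for 22 chains, as for 45.8% of tested genes, and below them for 3, as for 42.7%. Among the 22 higher chains, 5 passed the filter on low counts only through their M2 libraries, Col4a5, Col6a5, Col8a2, Col11a1 and Col15a1, so they could be tested only because they differed. Without these 5, 17 of 23 tested chains were higher, 12 of them by at least 3 log2 units, and the median log2 fold change was 3.08.

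**Figure D1:**
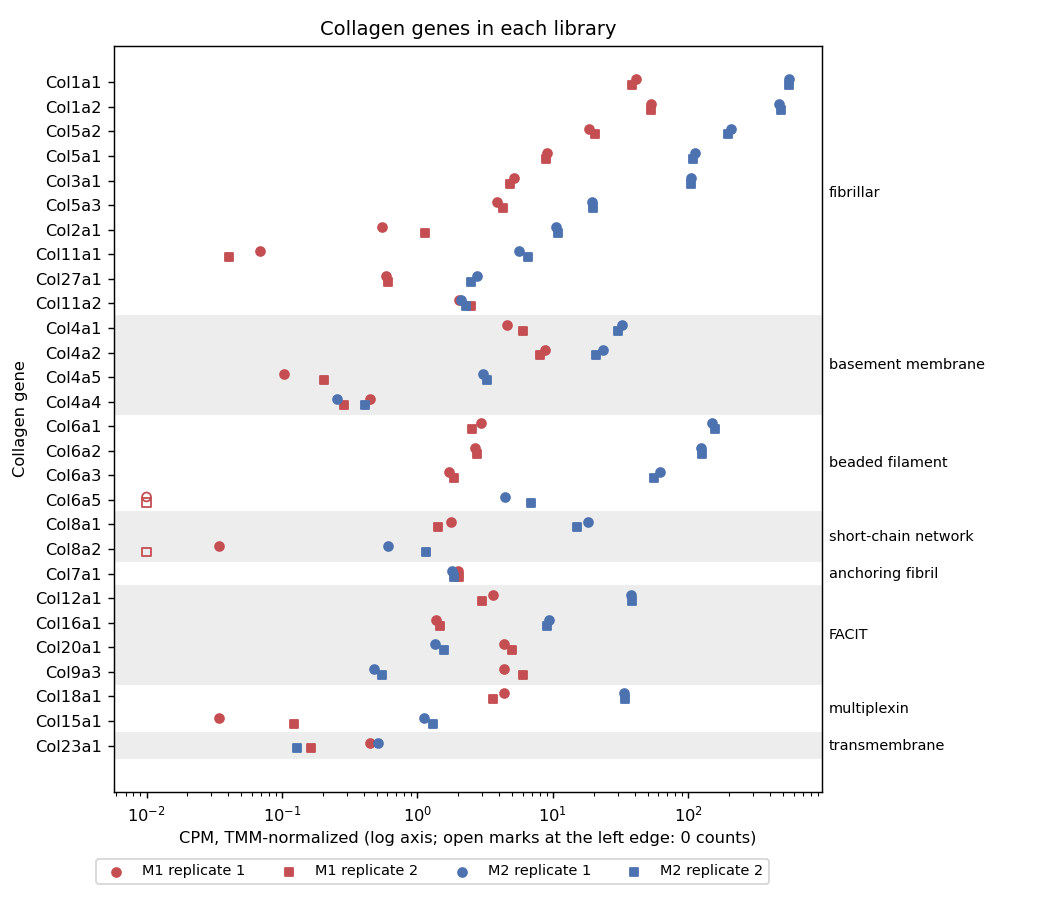
Level of each tested collagen chain in each library, in TMM-scaled CPM on a log10 axis, with M1 in red, M2 in blue, replicate 1 as circles and replicate 2 as squares; open marks at the left edge stand for 0 counts. For 22 chains both M2 points lie to the right of both M1 points. Col9a3, Col20a1 and, by a small margin and without a call, Col7a1 lie the other way round.

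The upstream sequences of 5 of the chains that rose are printed here, picked after their values were known, because they belong to chains from the abundant fibril and filament classes or to chains nearly absent from M1, and because their 250 bases before the start hold no annotated exon. The sequences are RefSeq's on GRCm38.p6, each read 5′ to 3′ on the strand of its gene and ending at the base before the start. Capitals mark the CCAAT box (CCAAT), the TATA box (TATAAA) and the GC box (GGGCGG), found on either strand, and no marked motifs overlap in these windows.
Col3a1 (chr1:45311288-45311537, plus strand): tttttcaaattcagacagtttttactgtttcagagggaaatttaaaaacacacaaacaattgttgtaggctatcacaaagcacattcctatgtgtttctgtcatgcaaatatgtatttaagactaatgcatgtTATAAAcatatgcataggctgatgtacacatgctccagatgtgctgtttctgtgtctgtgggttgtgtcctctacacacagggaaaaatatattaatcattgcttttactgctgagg
Col5a1 (chr2:27886175-27886424, plus strand): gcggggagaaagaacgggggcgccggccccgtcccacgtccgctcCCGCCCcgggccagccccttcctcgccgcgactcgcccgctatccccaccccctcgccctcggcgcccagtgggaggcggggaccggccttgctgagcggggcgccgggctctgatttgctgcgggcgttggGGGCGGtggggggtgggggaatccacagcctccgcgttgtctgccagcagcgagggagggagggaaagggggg
Col6a3 (chr1:90843972-90844221, minus strand): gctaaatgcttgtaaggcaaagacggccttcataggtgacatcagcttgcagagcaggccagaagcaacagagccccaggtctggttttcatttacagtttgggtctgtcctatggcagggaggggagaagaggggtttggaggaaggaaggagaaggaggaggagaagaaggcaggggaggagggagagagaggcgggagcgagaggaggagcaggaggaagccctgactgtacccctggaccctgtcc
Col6a5 (chr9:105960644-105960893, minus strand): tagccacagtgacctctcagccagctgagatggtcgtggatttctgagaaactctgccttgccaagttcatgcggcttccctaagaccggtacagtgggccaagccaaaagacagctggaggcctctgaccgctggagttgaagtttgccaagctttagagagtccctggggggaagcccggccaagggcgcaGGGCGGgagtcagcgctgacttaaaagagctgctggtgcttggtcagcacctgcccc
Col11a1 (chr3:114030290-114030539, plus strand): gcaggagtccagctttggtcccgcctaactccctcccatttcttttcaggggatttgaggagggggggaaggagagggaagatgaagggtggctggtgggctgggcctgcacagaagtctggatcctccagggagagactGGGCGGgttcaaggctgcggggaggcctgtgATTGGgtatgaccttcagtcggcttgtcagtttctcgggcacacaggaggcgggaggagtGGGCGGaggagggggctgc
These windows differ widely in make-up, from 35.2% G and C in Col3a1 to 76.4% in Col5a1. In Col3a1 the only capitals are a TATAAA 117 bases before the start, and Col6a3 holds none of the marked motifs. Of the 44 chains, 35 had a promoter in the table. GGGCGG, the GC box, was in 21 of the 35 collagen windows and in 32.9% of 27025 promoters of the same length. CCAAT was in 12 of the 35 (34.5% of promoters), TATAAA in 5 (13%), CAGAC, the core of the SMAD element, in 14 (42.1%), and TGANTCA, the AP-1 site, in 1 (6.87%), that of Col6a1. TTCNNNNGAA, the spacing that STAT6 prefers, was in none of the 35 (5.86% of promoters). A match here is a match of letters in a short window, and its absence says nothing about a factor.

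Fibrillar chains, which build the banded fibres of connective tissue, carried most of the collagen counts in both states. Of 11 chains 10 were tested, 9 rose and Col11a2 was not called, where 39.7% of all tested genes were higher. Among the 9, Col11a1 passed the filter on low counts only through its M2 libraries. Type I led. Col1a1 (ENSMUSG00000001506, chromosome 11, 94936224 to 94953042, GRCm38), the major chain of bone and skin collagen, had 40.7 and 38.2 CPM in M1 and 551 and 557 CPM in M2. That is 14-fold, a log2 fold change of 3.81 (SE 0.07, edgeR adjusted p = 6.34e-16). Its partner Col1a2 (ENSMUSG00000029661, chromosome 6, 4504814 to 4541544) went from 52.9 and 53.0 CPM to 469 and 486 CPM, 9.02-fold (log2 3.17, SE 0.07, edgeR adjusted p = 2.45e-15). In each case the replicates were close to each other and the groups lay far apart.

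Col3a1 (chromosome 1, 45311538 to 45349706), the chain of the thin fibres of vessel walls and healing wounds, rose by a larger fold than either type I chain. It had 5.18 and 4.80 CPM in M1 and 104 CPM in both M2 libraries, 20.8-fold (log2 4.38, SE 0.08, edgeR adjusted p = 5.12e-16). Whether the rises of Col3a1 and the type I chains differ was not tested. Type V, which sits inside type I fibrils and sets their width, rose in all 3 chains. Col5a1 had 9.03 and 8.95 CPM in M1 and 111 and 109 CPM in M2 (log2 3.61, SE 0.07, edgeR adjusted p = 1.26e-15). Col5a2 had 18.5 and 20.5 CPM in M1 and 206 and 197 CPM in M2 (log2 3.37, SE 0.07, edgeR adjusted p = 2.70e-15). Col5a3, the chain of narrowest tissue range, changed less, from 3.88 and 4.27 CPM to 19.3 and 19.6 CPM (log2 2.26, SE 0.11, edgeR adjusted p = 3.82e-11).

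The cartilage chains of this class were low. Col2a1, the main collagen of cartilage, had 0.549 and 1.14 CPM in M1 and 10.6 and 10.9 CPM in M2 (log2 3.71, SE 0.20, edgeR adjusted p = 3.17e-10). Col11a1, a minor chain of cartilage fibrils, had 2 and 1 counts in M1 and 177 and 303 in M2, a ratio of depth-scaled counts of 111 (exact 95% interval 37.8 to 540.5, edgeR adjusted p = 7.88e-11). Its partner Col11a2 lay at 2.02 and 2.48 CPM in M1 and 2.11 and 2.30 CPM in M2, so the M2 libraries fell inside the M1 range (log2 -0.01, SE 0.20, edgeR adjusted p = 0.950). Col27a1, a fibrillar chain of growing cartilage, had 0.583 and 0.610 CPM in M1 and 2.75 and 2.47 CPM in M2 (log2 2.12, SE 0.26, edgeR adjusted p = 2.05e-06). Col24a1, the last of the class, had 8 and 10 counts in M1 and 3 and 4 in M2 and was not tested.

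Type VI collagen, which forms beaded filaments around cells, gained most as a class. Its summed level was 7.52 and 7.32 CPM in M1 and 339 and 345 CPM in M2, 46.1-fold. All 4 tested chains rose, against 39.7% of all tested genes. Among the 4, Col6a5 passed the filter on low counts only through its M2 libraries. Col6a1 (ENSMUSG00000001119, chromosome 10, 76708792 to 76726168) had 2.95 and 2.52 CPM in M1 and 149 and 156 CPM in M2, 55.8-fold (log2 5.79, SE 0.09, edgeR adjusted p = 8.91e-17). Col6a2 had 2.64 and 2.77 CPM in M1 and 123 and 126 CPM in M2, 46.1-fold (log2 5.53, SE 0.09, edgeR adjusted p = 8.91e-17). Col6a3, the longest of the 3 classical chains, had 1.72 and 1.87 CPM in M1 and 62.2 and 55.7 CPM in M2, 32.9-fold (log2 5.04, SE 0.11, edgeR adjusted p = 4.03e-15). These 3 chains are assembled together, and all had under 3 CPM in both M1 libraries.

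Col6a5 (ENSMUSG00000091345, chromosome 9, 105856078 to 105960643), a chain described later and thought to take the place of Col6a3, had no count in either M1 library and 138 and 316 counts in M2. Its M2 level was 4.41 and 6.86 CPM (edgeR adjusted p = 2.59e-06). With counts pooled over each group and scaled for depth, M2 was at least 105-fold higher than a floor of 3 counts over the M1 group, and the exact 95% interval of the ratio starts at 85.1. Among chains of at least 1 CPM in M2 it was also the one whose M2 replicates differed most, by 0.64 log2. Its neighbours did not share this pattern: Col6a4 had 3 and 3 counts in M1 and 5 and 9 in M2, and Col6a6 had 3 and 1 in M1 and 3 and 0 in M2. Col6a6 lies 27917 bases and Col6a4 28810 bases from Col6a5 on the same strand, and neither was tested.

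**Figure D2:**
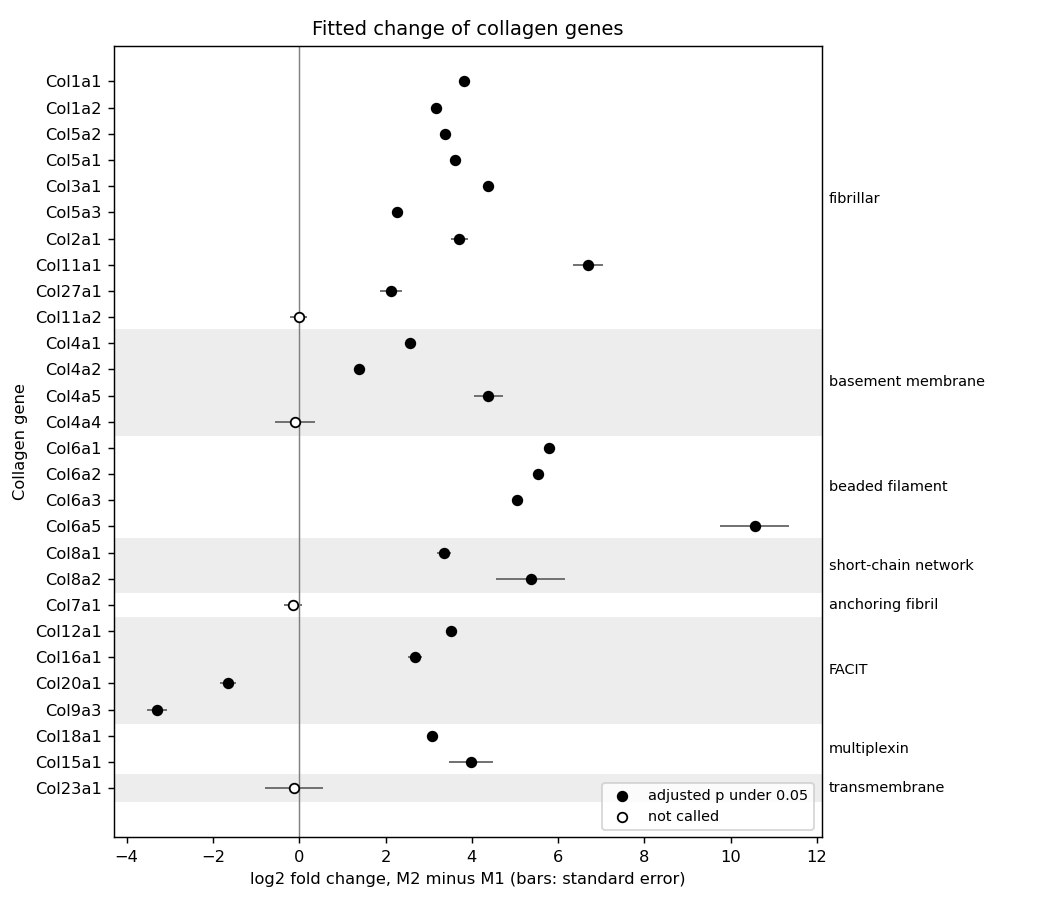
Log2 fold change (M2 minus M1) with its standard error for each tested chain, arranged by class; the vertical line marks no change and open points were not called. Type VI chains stand at 5.04 and above, the type I, III and V chains between 2.26 and 4.38, and Col9a3 and Col20a1 below 0; the point of Col6a5 is a fitted value against 0 counts and gives no size.

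Type IV collagen, the sheet of basement membranes, rose by less, in 3 of its 4 tested chains against 39.7% of all tested genes. Among the 3, Col4a5 passed the filter on low counts only through its M2 libraries. Col4a1 had 4.56 and 5.98 CPM in M1 and 32.2 and 30.1 CPM in M2 (log2 2.57, SE 0.11, edgeR adjusted p = 1.61e-11). Col4a2, which pairs with it in the common basement membrane molecule, had 8.79 and 8.01 CPM in M1 and 23.4 and 20.7 CPM in M2 (log2 1.38, SE 0.10, edgeR adjusted p = 6.52e-09), the smallest rise among the called chains. The genes start head to head on chromosome 8 and share 22 exon bases on opposite strands. Per kilobase of exon the ratio of Col4a1 to Col4a2 was 0.461 and 0.662 in M1 and 1.22 and 1.29 in M2, so the more abundant of the pair was Col4a2 in M1 and Col4a1 in M2. The same order held over the longest coding transcripts, at 0.507 and 0.728 in M1 and 1.34 and 1.41 in M2.

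The chains of specialised basement membranes were rare. Col4a5, of the kidney filter and other sites, had 3 and 5 counts in M1 and 96 and 151 in M2 (log2 4.38, SE 0.34, edgeR adjusted p = 1.15e-08), a ratio of 21.4 with an exact 95% interval of 10.7 to 50.2. Col4a4 lay at 0.446 and 0.285 CPM in M1 and 0.255 and 0.412 CPM in M2, with overlapping groups (log2 -0.10, SE 0.46, edgeR adjusted p = 0.852). Col4a3, which assembles with both, had 6 and 6 counts in M1 and 4 and 5 in M2, and Col4a6 had 1 and 1 in M1 and 0 and 5 in M2. Neither was tested. Col4a3bp, which only shares the letters of the name, had 85.9 and 69.0 CPM in M1 and 111 and 112 CPM in M2 (log2 0.52, SE 0.09, edgeR adjusted p = 0.000202).

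Of the fibril-associated collagens, which coat fibrils and are known as FACIT, 4 chains were tested, 2 rose and 2 fell. With 39.7% of all tested genes higher and 37.5% lower, this split is near the background. Col12a1, found in tendon and other dense tissue, had 3.64 and 2.97 CPM in M1 and 38.0 and 38.2 CPM in M2 (log2 3.52, SE 0.11, edgeR adjusted p = 1.07e-13). Col16a1 had 1.37 and 1.46 CPM in M1 and 9.35 and 8.97 CPM in M2 (log2 2.69, SE 0.16, edgeR adjusted p = 3.29e-10). Col9a3 (ENSMUSG00000027570, chromosome 2, 180597790 to 180622189), a chain of cartilage type IX collagen, went the other way. It had 4.36 and 5.98 CPM in M1 and 0.479 and 0.543 CPM in M2, 10.1-fold lower in M2 (log2 -3.30, SE 0.24, edgeR adjusted p = 6.39e-09). Col20a1 (ENSMUSG00000016356, chromosome 2, 180986535 to 181018363) had 4.32 and 4.96 CPM in M1 and 1.34 and 1.56 CPM in M2, 3.20-fold lower (log2 -1.65, SE 0.18, edgeR adjusted p = 7.30e-07).

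Type IX collagen is built from the products of Col9a1, Col9a2 and Col9a3, and of these only Col9a3 was measured above a few counts. Col9a2 had 1 and 0 counts in M1 and 1 and 1 in M2, and Col9a1 had none in any library. Both chains that fell lie on chromosome 2, 364345 bases apart on the same strand, with 18 annotated genes between them, 8 of them coding. Of the 5 tested genes between them 1 was higher, 2 were lower and 2 were not called, with a median log2 fold change of -0.02. Exons of Col9a3 overlap those of Tcfl5 on the other strand by 234 bases, and Tcfl5 had 1 and 0 counts in M1 and 1 and 3 in M2. Col20a1 shares 79 exon bases with a same-strand transcript, BX649560.1, which had 182 and 157 counts in M1 and 160 and 162 in M2. The library kit does not mark strand, so reads in such overlaps cannot be assigned to one gene.

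The remaining classes were small. Both multiplexins, collagens of the basement membrane zone with interrupted helices, rose, where 39.7% of all tested genes were higher. However, Col15a1 passed the filter on low counts only through its M2 libraries. Col18a1, whose end fragment is endostatin, had 4.36 and 3.58 CPM in M1 and 33.3 and 34.2 CPM in M2 (log2 3.08, SE 0.11, edgeR adjusted p = 5.36e-13). Col15a1 had 1 and 3 counts in M1 and 35 and 60 in M2, a ratio of 16.5 (exact 95% interval 6.23 to 61.8, edgeR adjusted p = 3.88e-06).

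Type VIII, a short-chain network collagen of vessel walls and the cornea, rose in both chains, where 39.7% of all tested genes were higher. However, Col8a2 passed the filter on low counts only through its M2 libraries. Col8a1 had 1.78 and 1.42 CPM in M1 and 18.1 and 15.0 CPM in M2 (log2 3.35, SE 0.16, edgeR adjusted p = 3.70e-11). Col8a2 had 1 and 0 counts in M1 and 19 and 53 in M2, a ratio of 50.0 whose exact 95% interval of 8.69 to 2001 leaves its size poorly known (edgeR adjusted p = 2.35e-05). Col7a1, the anchoring fibril collagen that ties the epidermis to the dermis, lay at 1.99 and 2.03 CPM in M1 and 1.79 and 1.85 CPM in M2 (log2 -0.14, SE 0.21, edgeR adjusted p = 0.535). Of the transmembrane collagens, which stay in the cell membrane, Col23a1 alone was tested. It had 0.446 and 0.163 CPM in M1 and 0.511 and 0.130 CPM in M2, a wider gap within each group than between them (log2 -0.13, SE 0.67, edgeR adjusted p = 0.870). The 4 chains that were not called, Col4a4, Col7a1, Col11a2 and Col23a1, turned above 0 under upper-quartile or library-total scaling, so no direction is given for them.

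The other 9 chains with a count but no test stayed at a few counts per library. Col10a1, of the growth plate, had 1 and 0 counts in M1 and 9 and 9 in M2. Col14a1 had 4 and 2 in M1 and 13 and 9 in M2, and Col19a1 5 and 3 in M1 and 1 and 3 in M2. Col22a1 had 4 and 3 counts in M1 and 5 and 4 in M2, and Col25a1 3 and 1 in M1 and 0 and 3 in M2. Col13a1 had 1 and 0 in M1 and 0 and 2 in M2, and Col17a1 had 0 and 1 in M1 and 2 and 1 in M2. Col28a1 had 0 and 2 in M1 and 1 and 3 in M2, and Col26a1 had 1 count, in M1. The main test left all 9 out, and Col10a1 and Col14a1 were called under other settings given in the closing section.

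The make-up of the collagen RNA changed in its smaller parts and little in its largest. Fibrillar chains held 74.9% ± 0.103 (SD, n = 2) of the collagen counts in M1 and 74.7% ± 0.140 in M2, and type I alone 52.5% and 50.8% in M1 and 51.4% and 52.2% in M2. Type VI went from 4.14% ± 0.0982 to 17.2% ± 0.125. Basement membrane chains went from 8.07% ± 0.205 to 2.86% ± 0.169, and FACIT chains from 8.34% ± 0.560 to 2.5% ± 0.0189, although their summed levels rose 3.94-fold and 3.33-fold. The anchoring fibril chain went from 1.12% to 0.0912% while its own level was not called. Type III went from 2.79% ± 0.165 to 5.22% ± 0.00558, and type V from 18.2% ± 0.822 to 16.6% ± 0.474. With 2 libraries a group an exact permutation test cannot reach 0.05, so these shares carry no test.

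**Figure D3:**
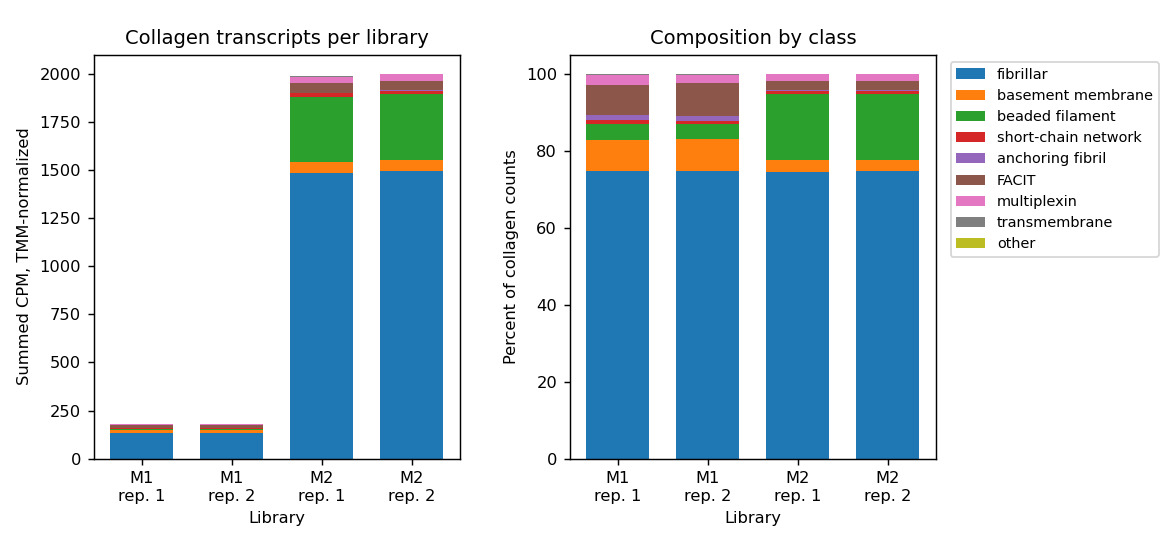
Summed TMM-scaled CPM of the collagen chains (left) and percent of collagen counts (right) in each of the 4 libraries, stacked by class. The sum is 178 and 179.7 CPM in M1 and 1985 and 1999 CPM in M2, the fibrillar share is near 75% in every library, while the beaded filament share (type VI) is 4.21% and 4.08% in M1 and 17.1% and 17.3% in M2.

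Levels of different genes were compared per kilobase of the union of a gene's exons. In M2, Col1a1 stood first at 84.4 CPM per kilobase, followed by Col1a2 at 38.4, Col6a1 at 34.9, Col5a2 at 21, Col6a2 at 15.0, Col5a1 at 13 and Col3a1 at 10.6. Next were Col6a3, at 5.20 and 4.66 CPM per kilobase in its libraries, and Col18a1, at 4.74 and 4.87, which overlapped. In M1, Col1a1 at 6.01 and Col1a2 at 4.26 CPM per kilobase led as well, followed by Col5a2 at 2.03, Col9a3 at 1.34, Col4a2 at 1.27 and Col5a1 at 1.06. The ranges of Col9a3, 1.13 and 1.55, and Col4a2, 1.33 and 1.21, overlapped. Col9a3 and Col20a1 were thus at ranks 4 and 7 among the chains in M1, and neither was among the first 10 in M2.

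The order of the type I chains depended on the length used. Over the longest coding transcript, Col1a2 led in M1 at 9.90 CPM per kilobase against 6.66 for Col1a1, and in M2 Col1a1 stood at 93.4 and Col1a2 at 89.3. The ratio of Col1a1 to Col1a2 was 1.46 and 1.37 in M1 and 2.23 and 2.17 in M2 over the union of exons, or 0.694 and 0.651 in M1 and 1.06 and 1.03 in M2 over the longest transcript. On either length it was higher in both M2 libraries than in both M1 libraries. Type I collagen protein is mostly made of more Col1a1 than Col1a2 chains.

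**Figure D4:**
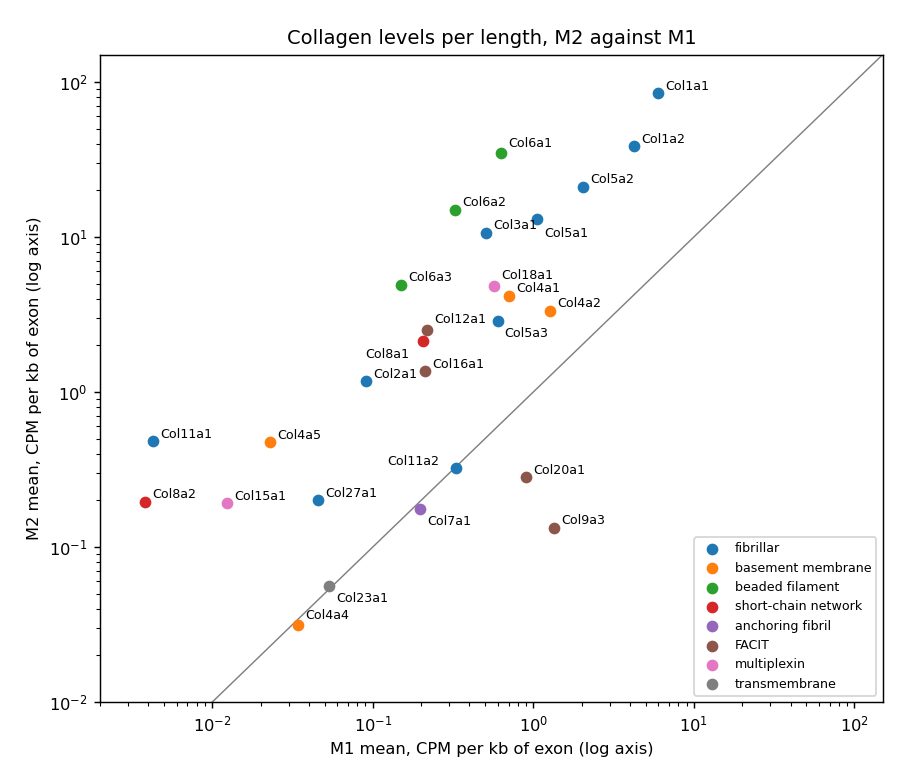
Mean level of each chain in M2 against M1, in CPM per kilobase of exon on log10 axes, with the line of equal levels; Col6a5 has no count in M1 and is not drawn. Colours give the class. The 3 type VI chains drawn lie well above the line, the 4 chains that were not called lie on or near it, and Col9a3 and Col20a1 lie below it.

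Replicates lay close together for the chains that could be compared. Among 19 chains of at least 1 CPM in M1, replicate 2 minus replicate 1 had a median of 0.03 log2 and ran from -0.33 (Col8a1) to 0.46 (Col9a3), with 11 above 0. In M2, 24 chains gave a median of 0.03 and a range from -0.27 (Col8a1) to 0.64 (Col6a5), with 16 above 0. These gaps are well under the smallest rise among the called chains, 1.38. Called chains under 1 CPM in a group were left out there, and some differed by more, such as Col15a1 at 0.0343 and 0.122 CPM in M1.

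The enzymes and chaperones that make a collagen chain into a fibre followed next, as a list of 36 genes of which 32 were tested. In M2, 23 were higher, 6 were lower and 3 were not called, with a median log2 fold change of 1.76 against 0.04 over all tested genes, of which 39.7% were higher and 37.5% lower. Folding, propeptide removal and cross-linking genes rose in every tested case, and hydroxylation and export were mixed. For glycosylation, Colgalt1 rose from 52.6 and 59.4 CPM to 365 and 368 CPM (log2 2.71, SE 0.07), and Colgalt2 was not tested. Of the 23, P3h4, Pcolce2 and Loxl4 needed their M2 libraries to pass the filter on low counts. All 3 folding genes rose, among them Serpinh1, the collagen chaperone HSP47, with 13.5 and 16.6 CPM in M1 and 142 and 139 CPM in M2 (log2 3.23, SE 0.08, edgeR adjusted p = 9.50e-14). All 5 tested genes of propeptide removal rose, among them Pcolce2, an enhancer of the procollagen C-proteinase, with 0.172 and 0.203 CPM in M1 and 3.54 and 3.15 CPM in M2 (log2 4.13, SE 0.31). All 5 lysyl oxidases, which cross-link fibrils, rose, and Lox itself went from 37.4 and 34.1 CPM to 475 and 454 CPM, 13-fold (log2 3.70, SE 0.08, edgeR adjusted p = 1.25e-15).

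Of 10 genes of prolyl hydroxylation 5 rose, 4 fell and P3h2 was not called. With 39.7% of all tested genes higher and 37.5% lower, this split is near the background. P3h4, a partner of the enzymes that modify lysine and proline, had 0.549 and 0.366 CPM in M1 and 11.5 and 10.6 CPM in M2, 24.1-fold (log2 4.55, SE 0.20). P4ha1, the main catalytic subunit of prolyl 4-hydroxylase, fell from 208 and 202 CPM to 135 and 136 CPM (log2 -0.59, SE 0.06, edgeR adjusted p = 2.88e-07). P4ha2, its second form, fell from 74.0 and 65.8 CPM to 18.9 and 19.1 CPM, 3.68-fold (log2 -1.88, SE 0.07). P4hb, the shared beta subunit that is also protein disulfide isomerase, fell from 659.5 and 696 CPM to 433 and 429 CPM (log2 -0.65, SE 0.07). Plod1, a lysyl hydroxylase, fell from 225 and 195 CPM to 109.6 and 108 CPM (log2 -0.95, SE 0.07), while the other 3 tested genes of lysine modification rose, Plod3 by 0.17 and not called with RLE size factors. Ppib (log2 -0.26) and Sec13 (log2 -0.28) completed the 6; they were higher in M2 under library totals alone, at 0.19 and 0.16. Of the 5 export genes, which help fill and coat the vesicles that carry procollagen, Mia2 and Sec24d rose, and Mia3 and Sec23a were not called. The number of export genes that rose is also near the background share of 39.7%.

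**Figure D5:**
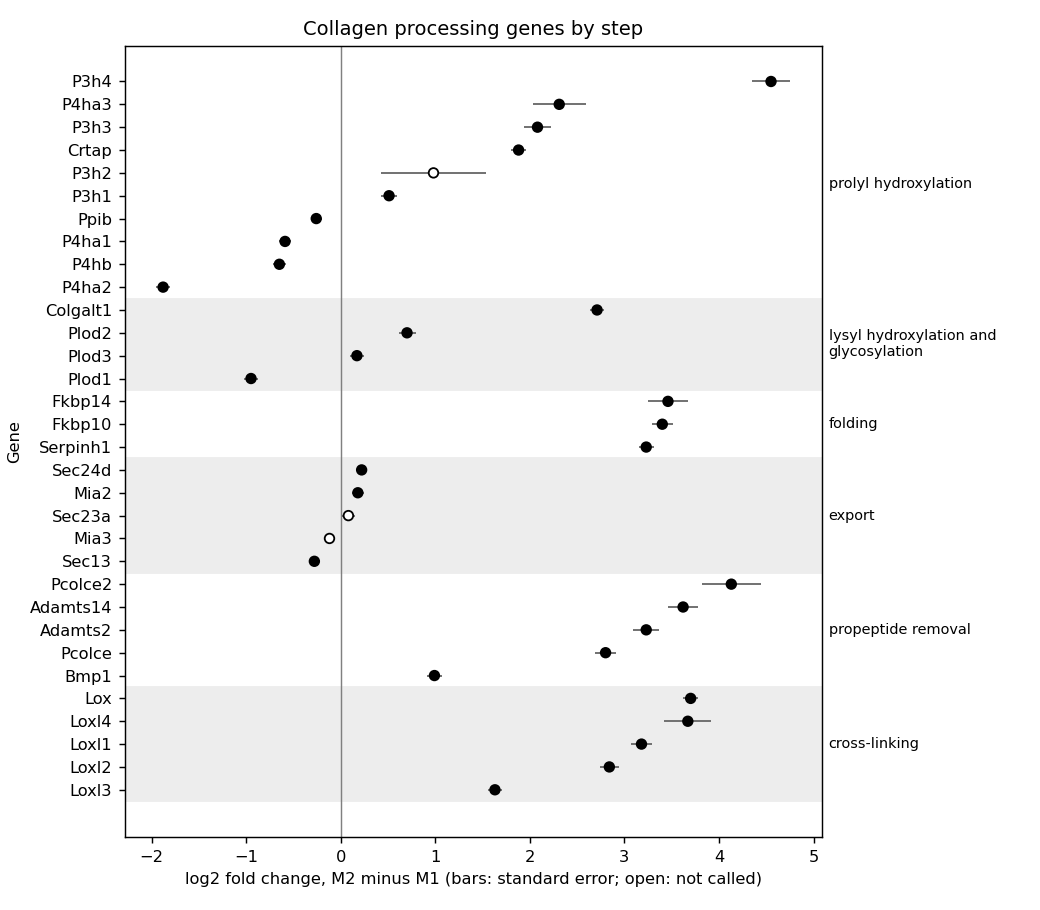
Log2 fold change (M2 minus M1) with its standard error for the tested genes of collagen processing, arranged by step, with open points for genes not called. Folding, propeptide removal and cross-linking genes all lie above 0, from 0.99 for Bmp1, while P4ha1, P4ha2, P4hb, Plod1, Ppib and Sec13 lie below it.

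Among receptors of collagen, 12 of 14 listed genes were tested, 9 rose, none fell and 3 were not called (median log2 fold change 2.64), against 39.7% higher and 37.5% lower among all tested genes. Mrc1, the mannose receptor, which binds and takes in collagen, had 2.88 and 2.03 CPM in M1 and 1058 and 1012 CPM in M2, 421-fold (log2 8.70, SE 0.12, edgeR adjusted p = 2.85e-17). Its relative Mrc2, Endo180, went from 1.89 and 1.71 CPM to 16.8 and 15.9 CPM (log2 3.17, SE 0.13). Itga11, an integrin chain for fibrillar collagen, had 0.583 and 0.610 CPM in M1 and 20.4 and 17.8 CPM in M2 (log2 4.99, SE 0.17), and its partner chain Itgb1 551 and 552 CPM in M1 and 686 and 673 CPM in M2 (log2 0.30, SE 0.07). Cd36, a scavenger receptor that also binds collagen, had 126 and 111 CPM in M1 and 2970 and 2995 CPM in M2 (log2 4.65, SE 0.09). Lair1, an inhibitory receptor for collagen on leukocytes, had 21.5 and 19.2 CPM in M1 and 129.8 and 134 CPM in M2 (log2 2.69, SE 0.07). Ddr1, a receptor tyrosine kinase for collagen, had 0.686 and 0.610 CPM in M1 and 5.27 and 5.19 CPM in M2 (log2 3.0, SE 0.21).

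Proteins that carry a collagen-like stretch without being collagens came next. Of 25 listed, 14 were tested, 7 rose, 4 fell and 3 were not called, with a median log2 fold change of 0.26. With 39.7% of all tested genes higher and 37.5% lower, these shares are near the background. Of the 7, Colec10, Adipoq, Scara3 and Cthrc1 needed their M2 libraries to pass the filter on low counts. Marco, a scavenger receptor, fell from 2078 and 2262 CPM to 4.76 and 5.90 CPM, 407-fold (log2 -8.65, SE 0.12, edgeR adjusted p = 2.71e-17). Msr1, another scavenger receptor, fell from 362 and 305 CPM to 156 and 155 CPM (log2 -1.10, SE 0.08), and Emilin2, an elastic fibre protein, from 197 and 179.7 CPM to 103 and 97.3 CPM (log2 -0.91, SE 0.07). C1qb, a chain of the complement protein C1q, was lower by a small margin (log2 -0.35) and not called under library totals alone. The lectin Colec12 rose from 3.02 and 3.34 CPM to 41.2 and 38.8 CPM (log2 3.66, SE 0.10). Scara3 rose from 0.137 and 0.163 CPM to 1.79 and 2.58 CPM (log2 3.87, SE 0.40), and the ficolin Fcna from 0.652 and 0.529 CPM to 4.82 and 5.14 CPM (log2 3.06, SE 0.22).

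Of 20 listed genes of TGF-beta signalling and collagen transcription, 19 were tested: 14 rose, 2 fell and 3 were not called (median log2 fold change 1.15), against 39.7% higher and 37.5% lower among all tested genes. Of the 14, Tgfb2, Sox9, Scx and Twist1 needed their M2 libraries to pass the filter on low counts. TGF-beta is the best known inducer of collagen genes in fibroblasts. Tgfb1 had 170.3 and 173 CPM in M1 and 378 and 374 CPM in M2 (log2 1.13, SE 0.06, edgeR adjusted p = 1.94e-10). Tgfb3 had 0.618 and 0.691 CPM in M1 and 10.3 and 9.62 CPM in M2 (log2 3.92, SE 0.18), and Tgfb2 0.0686 and 0.122 CPM in M1 and 2.27 and 2.15 CPM in M2 (log2 4.51, SE 0.40). Sox9, the cartilage factor that drives Col2a1, had 0.172 and 0.0813 CPM in M1 and 2.11 and 2.34 CPM in M2 (log2 4.07, SE 0.38). Skil, a repressor of SMADs, fell from 293 and 288 CPM to 71.9 and 66.3 CPM (log2 -2.07, SE 0.07).

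Markers of other cells that make collagen were split, with more fibroblast and stromal markers rising than falling. The 18 fibroblast and stromal markers summed to 72.2 and 62.0 CPM in M1 and 510.4 and 503 CPM in M2, and of the 16 tested 12 rose, 3 fell and 1 was not called, against 39.7% higher and 37.5% lower among all tested genes. Acta2, smooth muscle actin, went from 3.40 and 3.74 CPM to 159.6 and 163 CPM, 45.2-fold (log2 5.50, SE 0.09), and Postn, periostin, from 4.46 and 6.06 CPM to 111 and 106 CPM (log2 4.38, SE 0.10). Tagln, an actin-binding protein of smooth muscle, rose 13.8-fold. Pdgfra, a receptor that marks fibroblasts, had 1.27 and 0.691 CPM in M1 and 7.37 and 6.58 CPM in M2 (log2 2.79, SE 0.21), and Pdgfrb 4.80 and 4.96 CPM in M1 and 10.3 and 9.31 CPM in M2 (log2 1.00, SE 0.12). Other defining fibroblast genes fell. Dcn, decorin, had 17.5 and 12.5 CPM in M1 and 6.10 and 7.66 CPM in M2 (log2 -1.12, SE 0.17, edgeR adjusted p = 0.000217). Lum, lumican, had 1.30 and 1.38 CPM in M1 and 0.638 and 0.673 CPM in M2 (log2 -1.02, SE 0.28, edgeR adjusted p = 0.00396, and not called under library totals alone). Fap, a protease of activated fibroblasts, had 5.94 and 4.56 CPM in M1 and 0.415 and 0.803 CPM in M2 (log2 -3.03, SE 0.25). No marker of the list was at 0 in all libraries. Of the 12 that rose, Fbln1, Mfap5 and Mgp needed their M2 libraries to pass the filter on low counts. The part of such cells in the collagen values was not tested, and in bulk RNA fewer cells of a type and less RNA per cell cannot be told apart.

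Other marker lists were mostly low or went the other way, and megakaryocyte markers were higher in M2. Osteoblast markers summed to 4.15 and 4.72 CPM in M1 and 11.7 and 10.7 CPM in M2. Of 4 tested 3 rose, against 39.7% higher and 37.5% lower among all tested genes. Among the 3, Sp7 and Ibsp needed their M2 libraries to pass the filter on low counts. They could be tested only because they differed. Chondrocyte markers summed to 1.27 and 1.10 CPM in M1 and 4.25 and 4.39 CPM in M2. Acan had 1 count in all and Hapln1 none, while Sox9 and Comp rose. Sox9 needed its M2 libraries to pass the filter. Endothelial markers summed to 283 and 261 CPM in M1 and 9.13 and 10.4 CPM in M2, almost all of it Kdr and Pecam1. Lists for basophils and mast cells, T cells, B cells and erythroid cells were at 2.78 CPM or less in every library, and neutrophil markers between 3.13 and 8.95 CPM. Megakaryocyte markers summed to 13.4 and 15.7 CPM in M1 and 21.7 and 27.1 CPM in M2. Of 3 tested 2 rose and 1 was not called, against 39.7% higher and 37.5% lower among all tested genes. Macrophage markers summed to 8208 and 8194 CPM in M1 and 4482 and 4367 CPM in M2, and of the 8 tested 2 rose and 6 fell. Calls were common in this contrast, at 77.2% of all tested genes, 39.7% higher and 37.5% lower. Cd14, the lipopolysaccharide co-receptor, had 3035 and 3241 CPM in M1 and 37.2 and 33.3 CPM in M2, 89.0-fold lower. Fcgr1, a receptor for antibody, went from 684 and 472 CPM to 21.4 and 21.6 CPM, and Mertk, a receptor for dying cells, from 438 and 416 CPM to 53.1 and 51.0 CPM. Cd68, a lysosomal protein of macrophages, rose from 129.8 and 107 CPM to 1225 and 1261 CPM. Adgre1, which encodes F4/80, had 3055 and 3123 CPM in M1 and 1365 and 1292 CPM in M2, and Csf1r 254 and 274 CPM in M1 and 1673 and 1607 CPM in M2. Lyz2, the gene that carries Cre, was at 25.3 and 27.3 CPM in M1 and 6.51 and 6.88 CPM in M2.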

How the data were processed

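Poly(A) RNA of 4 libraries was sequenced as read pairs, per the labels' protocols, with a kit that does not mark strand. The authors deposited whole-number counts per gene, not normalized. Reads were handled on GRCm38 with STAR 2.5.2b, Trimmomatic 0.36, Subread 1.5.2, featureCounts, DESeq and DESeq2, per the submitters' processing notes. Tool settings were not given in the sources used here. A comparison table they deposited was not used.

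GENCODE vM21 gave symbols to 49056 of 49315 gene IDs. M2 was set against M1 in edgeR 4.0.16 (R 4.3.3): filterByExpr (minimum count 10, minimum total 15), TMM, robust quasi-likelihood F test, two-sided, Benjamini-Hochberg adjustment over all 14656 tested genes, calls at adjusted p under 0.05. Standard errors (SE) come from the log2 fold change over the root of the F statistic. Across genes, the common biological coefficient of variation came to 0.0528. Where a group had no count, 3 counts over the group served as its floor, and low counts were given exact 95% intervals. The script was tested on simulated data, in which the share of false calls lay above the nominal rate. Far fewer genes were changed there than were called here, so that share does not carry over as a rate. Adjusted p-values near the threshold should still be taken as less firm than they read.

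Collagen chains were grouped by textbook class. Every tested chain is named, untested ones by their counts, and of each list up to 3 called genes each way by size of change, with at least 1 CPM in the higher group, plus a set of named genes such as Serpinh1, Lox and Mrc1; a few others were added after their values were seen, and 1 gene that the rule names is not reported here. Members and lists were chosen with earlier results of these data known. Alternatives covered scaling, filter, test (DESeq2 1.42.0, limma-voom 3.58.1, glmTreat), spread, gene length and each library left out.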

Additional observations from a re-analysis of the deposited data

How the results depend on the processing

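All 24 chains called higher or lower kept their direction and their call under each of the 14 alternatives that tested them. Scaling moved the median log2 fold change of all genes by 0.45 with library totals and by 0.18 with upper quartiles, and the share of calls that were higher in M2 from 51.4% to 71.9% and 60.8%. Counts of all tested genes went to 2677 higher and 2163 lower when a change beyond 1 log2 unit was required, and to 3342 lower with library totals. With 5 CPM required in 2 libraries no chain was called lower, since neither passes it, 3 collagen-domain genes were called higher and 1 fibroblast marker lower. Beyond 1 log2 unit, 1 processing gene, 1 collagen-domain gene and 1 fibroblast marker were called lower. Per exon length, collagen took 0.00590% of M1 and 0.0938% of M2 counts, and type VI 5.10% and 22.4% of collagen.

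The 4 uncalled chains turned above 0 in some settings. With upper quartiles the log2 values were 0.09 (Col4a4), 0.04 (Col7a1), 0.06 (Col23a1) and 0.17 (Col11a2), and with library totals 0.35, 0.30, 0.32 and 0.43. With each library left out in turn, Col4a4 ran from -0.52 to 0.27, Col23a1 from -1.23 to 0.82 and Col11a2 from -0.16 to 0.13, and no filter gave Col11a2 0.05; the cause was not tested. Chains too low for the main filter gained calls: Col24a1 lower with no filter (-1.79) or without the first M1 or first M2 library (-2.13 and -1.89), Col10a1 higher with no filter (3.47), and Col14a1 higher without the second M2 library (1.87). With a library left out, the lone sample is assumed to vary like the other group. No paired analysis was possible because the replicate numbers were given in accession order and the labels pair no libraries. Depth limits the chains with few counts in M1, whose fold changes are known only within wide intervals.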
